A study of Mus musculus with 30 samples.

Results

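A set of 10 direct target genes of the tumour suppressor p53 was followed in mouse melanoma tumours, with Cdkn1a, which encodes the cell cycle inhibitor p21, as the leading gene. The other 9 were Ccng1, Mdm2, Phlda3, Sesn1, Trp53inp1, Zmat3, Eda2r, Bbc3 and Bax. They were taken as a named list, matched by symbol, and all 10 were found as 1 feature each among the 54532 features of the count files. The list was chosen with earlier results of these data known. All 10 passed the filter on low counts and were among the 13286 genes tested.

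The tumours were grown under the skin from 5 clones of YUMM1.7, a melanoma line from a C57BL/6 mouse known to carry an activated Braf allele and to lack Cdkn2a. The clones were the pair 2646TN and 2646R, the pair 14559TN and 14559R, and 13TN. What TN and R stand for is not given in the labels, and the titles of the 13TN samples carry the word Depleted. Each clone was grown untreated or under RAFi/MEKi, which by their names are inhibitors of RAF and MEK, kinases of the growth-signalling cascade that mutant Braf drives; the labels give neither compound, dose nor duration. There were 3 tumours in each of the 10 groups. A clone is 1 line, so all error estimates cover the spread between tumours of a clone and not the spread between clones. The sample labels give each tumour its own code, but not whether tumours shared a host.

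p53 is a transcription factor that is kept low by Mdm2 and is stabilised by DNA damage and by oncogenic or metabolic stress. It binds paired copies of a short decamer near its target genes and switches on genes for cell cycle arrest, for its own feedback control, for restraint of growth signalling and for cell death. In melanoma the gene for p53 itself is often intact, and loss of Cdkn2a removes an inhibitor of Mdm2. Several of its targets, Cdkn1a among them, are also known to respond to other inputs, including growth-factor signalling.

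Libraries held 3022801 to 5278453 counts (median 4042893). Reads came from transcript 3′ ends, so a level does not tell isoforms apart and was not compared between genes. Levels are in CPM, read counts scaled to a common library size with TMM factors, given as mean ± SD over 3 tumours or as the 3 tumours in order. Log2 fold changes are given ± SE, and the word "called" means an adjusted p below 0.05 in edgeR's quasi-likelihood test, with Benjamini-Hochberg adjustment over the 13286 genes. The dissociated cells had been stained for viability and for CD45, and the injected tumour cells were identified by strong GFP signal. Of the 7 melanocyte lineage markers, Tyr, Tyrp1 and Dct were at 0 in every library, Mlana had 1 count in all and Pmel reached 1.81 CPM, while Mitf ran from 12.0 to 81.3 CPM and Sox10 from 0 to 51.8 CPM. The pigment genes that define melanocytes were thus at or near 0. The 15 macrophage markers summed to 23.2 to 279 CPM per library, and Ptprc, which encodes CD45, reached at most 6.80 CPM. The 10 fibroblast markers, which many mesenchymal tumour cells also express, summed to 4061 to 22562 CPM. Each comparison was refitted with other settings, among them the mean macrophage marker level as a covariate and without each tumour in turn; where a call was lost, the adjusted p under that setting stands in parentheses. In bulk samples, fewer cells of a type and less RNA per cell cannot be told apart.

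The promoters of 8 of the 10 genes could be read in RefSeq windows on GRCm38.p6, which span 250 bases before to 50 bases after an annotated start (12 windows in all). Windows for Trp53inp1 and Zmat3 were not used here. An exact p53 half-site, the decamer that p53 binds, read on both strands since it is its own reverse complement, lay in a window of 5 genes: Bax, Ccng1, Cdkn1a, Mdm2 and Sesn1. Counted by window, 5 of the 12 held one, against 8.36% of all 32851 RefSeq windows. With 1 mismatch allowed outside the inner C and G of the decamer, 8 of the 12 windows did, from 7 genes, against 50.9% of all windows. A pair of half-sites with at most 1 such mismatch each and a spacer of 0 to 13 bases was searched for. It was found in 2 of the 12 windows, 1 of Cdkn1a and 1 of Ccng1, against 2.71% of all windows. The AP-1 motif TGANTCA, read on both strands as its own reverse complement, was in none of the 12 windows and in 7.81% of all windows. The 250 bases before the start are shown for the genes that hold a paired site. They are also shown for Sesn1 (upstream of its second annotated start), which holds a single exact half-site. Sesn1 was called higher under treatment in 14559TN and 13TN, where Cdkn1a was called lower, and in no other clone. Each sequence reads 5′ to 3′ on the gene's strand, with exact half-sites in capitals.
Cdkn1a, chr17:29090729-29090978, + strand: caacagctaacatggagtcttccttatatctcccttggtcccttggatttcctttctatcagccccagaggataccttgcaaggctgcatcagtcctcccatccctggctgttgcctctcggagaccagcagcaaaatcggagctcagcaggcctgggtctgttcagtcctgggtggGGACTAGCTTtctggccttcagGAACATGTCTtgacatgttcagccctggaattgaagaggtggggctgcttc
Ccng1, chr11:40755287-40755536, - strand: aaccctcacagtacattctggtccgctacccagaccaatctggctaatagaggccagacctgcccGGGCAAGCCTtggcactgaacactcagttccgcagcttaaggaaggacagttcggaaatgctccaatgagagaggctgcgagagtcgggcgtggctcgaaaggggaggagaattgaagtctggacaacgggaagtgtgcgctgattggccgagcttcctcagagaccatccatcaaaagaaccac
Sesn1, chr10:41887189-41887438, + strand: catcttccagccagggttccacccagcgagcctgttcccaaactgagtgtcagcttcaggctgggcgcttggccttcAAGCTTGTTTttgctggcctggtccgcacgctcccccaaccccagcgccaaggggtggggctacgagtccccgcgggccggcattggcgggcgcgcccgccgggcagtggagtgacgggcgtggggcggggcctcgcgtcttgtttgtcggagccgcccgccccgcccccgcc

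The Cdkn1a window holds 2 overlapping paired sites. One joins its half-sites with no spacer, at chr17:29090928-29090947, 51 bases before the first annotated start and 2841 bases before the second, with 1 mismatch in the second half-site. The other pairs the 2 exact half-sites, which begin at -73 and -51 from the start, across a spacer of 12 bases. In Ccng1 the pair begins at -195, with no spacer and 1 mismatch in the first half-site. Single exact half-sites begin at -201 in Bax, -186 in Mdm2 and -173 in Sesn1. The paired sites and these single half-sites read as follows, with the half-sites in capitals.
Cdkn1a, no spacer: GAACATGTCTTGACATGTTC
Cdkn1a, 12-base spacer: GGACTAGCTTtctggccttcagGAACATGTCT
Ccng1, no spacer: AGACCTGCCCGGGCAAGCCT
Bax: AGGCAAGCTT
Mdm2: GAACTTGCCT
Sesn1: AAGCTTGTTT
These letters describe the windows only, and no binding was measured.

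Under RAFi/MEKi at least 5 of the 10 genes were called lower in each of 2646R, 14559TN and 13TN, 1 was in 2646TN and 0 were in 14559R. The number called in either direction was 1 of 10 in 2646TN, 7 in 2646R, 6 in 14559TN, 0 in 14559R and 8 in 13TN. Over all tested genes the share called in the same comparisons was 3.94%, 19.9%, 28.4%, 0.196% and 31%. As the 10 genes were chosen with earlier results of these data known, an excess over these shares only describes the list. Lower calls made up the 1 in 2646TN, all 7 in 2646R, 5 of the 6 in 14559TN and 6 of the 8 in 13TN, where 2.24%, 10.2%, 16% and 17.4% of all genes were called lower. The median log2 fold change over the 10 genes was -0.44 in 2646TN, -0.88 in 2646R, -0.77 in 14559TN, -0.16 in 14559R and -0.68 in 13TN. That of all tested genes ran from -0.0025 in 13TN to 0.012 in 2646R. In 14559R, where edgeR and DESeq2 both called 0 of the 10, 3 had an unadjusted p under 0.05 (Ccng1, Phlda3 and Sesn1). Leaving out a tumour moved the count in 13TN from 8 to 5 at the lowest, without untreated tumour 3. In 2646TN the single call was lost with 5 of the 6 tumours left out in turn.

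**Figure D1:**
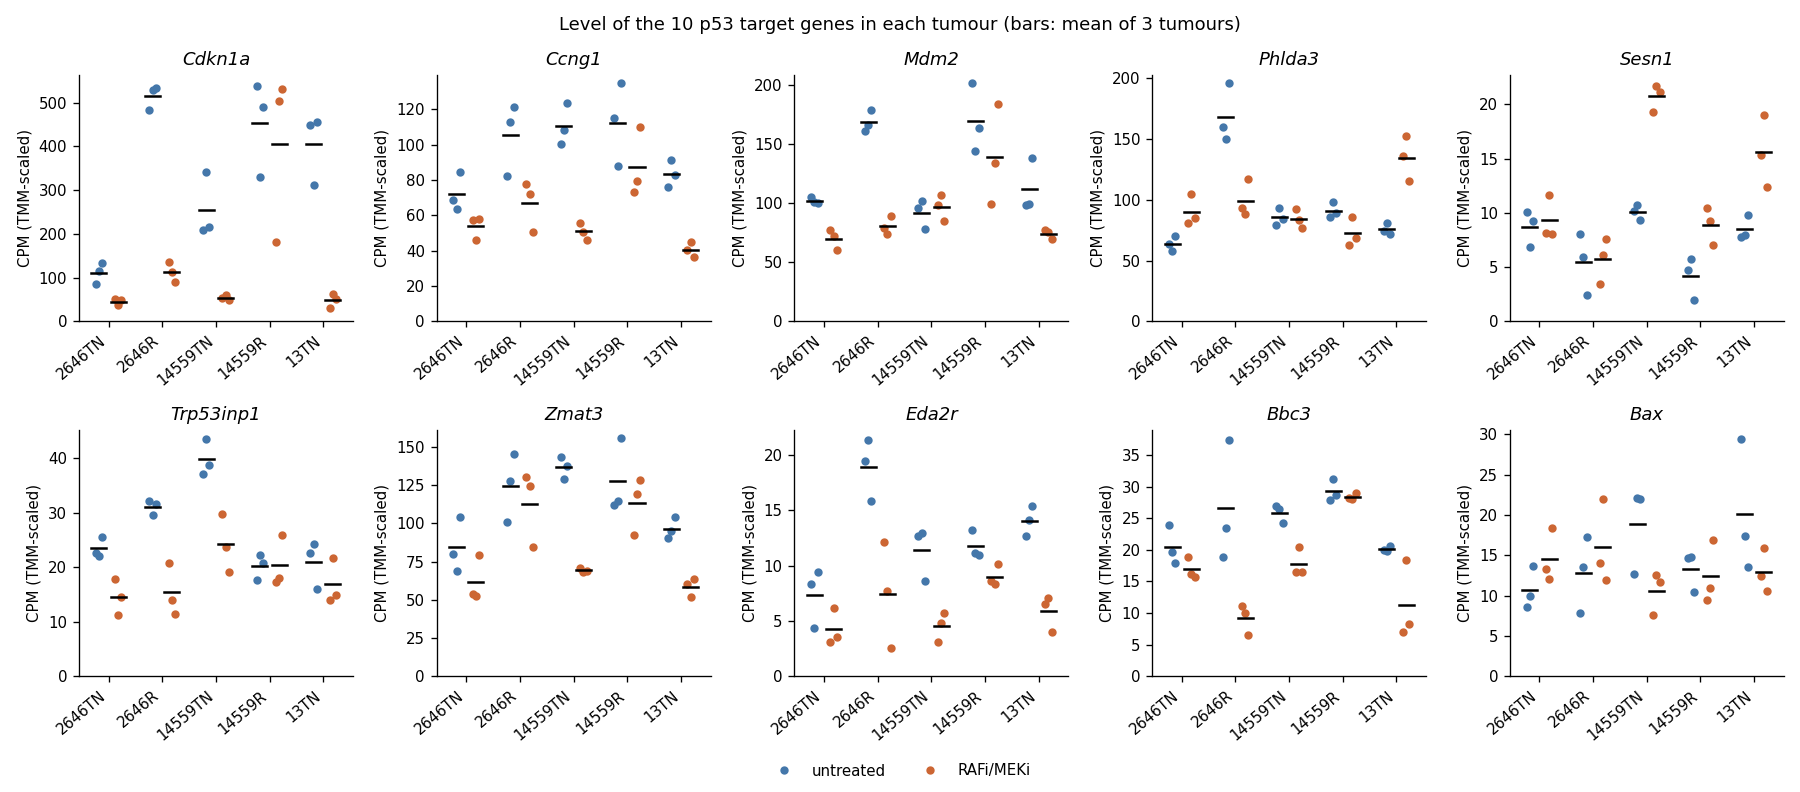
Level of each of the 10 genes in each of the 30 tumours, in CPM after TMM scaling, with untreated tumours in blue and RAFi/MEKi tumours in orange and a bar at the mean of 3. Cdkn1a falls to means of 45.1 to 113 CPM under treatment in 4 clones and stays at 405 CPM in 14559R, while Sesn1 is highest in treated 14559TN (20.7 CPM).

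Cdkn1a fell under treatment in 4 clones, between 2.46-fold and 8.40-fold. Its product p21 blocks cyclin-dependent kinases and holds cells before DNA replication. In 13TN the tumours had 448, 313 and 456 CPM untreated and 30.9, 62.8 and 51.1 CPM treated, a log2 fold change of -3.07 ± 0.34 (adjusted p = 3.85e-07). In 14559TN the values were 209, 341 and 217 CPM against 53.1, 60.0 and 48.0 CPM, or -2.25 ± 0.33 (adjusted p = 2.16e-05). In both clones every treated tumour lay below every untreated one by a wide gap.

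The clones 2646TN and 2646R moved the same way from different starting levels. Tumours of 2646R had 482, 529 and 532 CPM untreated and 136, 114 and 90.8 CPM treated, a change of -2.18 ± 0.32 (adjusted p = 4.41e-05). Tumours of 2646TN started lowest of all clones, at 84.9, 115 and 134 CPM, and had 50.3, 36.7 and 48.5 CPM treated, a change of -1.30 ± 0.33 (adjusted p = 0.0287). The groups did not overlap in either clone. For Cdkn1a in 2646TN the call was lost with the macrophage covariate (0.271), and without 2646TN untreated tumour 2 (0.0741), 2646TN untreated tumour 3 (0.116), 2646TN treated tumour 1 (0.0637), 2646TN treated tumour 2 (0.108) and 2646TN treated tumour 3 (0.0775). The summed macrophage markers were at 241 ± 54.3 CPM untreated and 52.3 ± 24.0 CPM treated there, with 8 of the list called lower. With their level as a covariate the estimate was -1.22.

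In 14559R Cdkn1a was not called with treatment. Untreated tumours had 538, 331 and 489 CPM and treated tumours 182, 503 and 531 CPM, a difference of -0.16 ± 0.31 (adjusted p = 0.912) with a 95% interval of -0.79 to 0.47. The groups overlapped, and treated tumour 1 stood below the other 5. Among the 3 treated tumours of this clone it also had the lowest value for Ccng1 (73.5 CPM), Mdm2 (99.5 CPM), Phlda3 (63.0 CPM), Zmat3 (92.3 CPM), Trp53inp1 (17.2 CPM), Bax (9.52 CPM) and the stress gene Ddit3 (103 CPM). It was not the lowest for Eda2r (8.62 CPM) or Bbc3 (28.1 CPM), and for Sesn1 it was the highest (10.4 CPM). Without treated tumour 1 the Cdkn1a difference was 0.17, and without treated tumour 3 it was -0.40. Neither was called. The estimates of the other 4 clones all lie below that interval.

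Ranked by mean, Cdkn1a was highest in untreated 2646R (515 ± 28.0 CPM), then untreated 14559R (453 ± 108), untreated 13TN (406 ± 80.7), treated 14559R (405 ± 194) and untreated 14559TN (255 ± 74.3). Treated 2646R (113 ± 22.4) and untreated 2646TN (111 ± 24.5) came next. Treated 14559TN (53.7 ± 6.01), treated 13TN (48.3 ± 16.2) and treated 2646TN (45.1 ± 7.37) were lowest. Neighbours in this order overlapped in range except at 2 places, below untreated 14559TN and below untreated 2646TN. Groups that were not neighbours could also be apart. The lowest tumour of untreated 2646R (482 CPM) lay above the highest of untreated 13TN (456 CPM) and of untreated 14559TN (341 CPM).

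The R clone had more Cdkn1a than its TN partner in 3 of the 4 comparisons by this test. Untreated 2646R was 4.63-fold above untreated 2646TN, at 2.21 ± 0.32 (adjusted p = 1.51e-05), and under treatment it was 2.51-fold above, at 1.33 ± 0.33 (adjusted p = 0.00686). Untreated 14559R against untreated 14559TN gave 0.83 ± 0.31 (adjusted p = 0.0552), which was not called, with 1 overlapping tumour on each side. It was called under 7 alternatives, DESeq2 among them (adjusted p = 0.0177). Under treatment 14559R was 7.53-fold above 14559TN, at 2.91 ± 0.34 (adjusted p = 3.34e-07), with no overlap. These comparisons share their groups with the treatment comparisons and are not independent of them.

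Ccng1 encodes cyclin G1, an early p53 target that recruits a phosphatase to Mdm2. It fell in 3 clones, as 76.2, 91.5 and 82.8 CPM untreated against 40.4, 44.7 and 36.5 CPM treated in 13TN (-1.04 ± 0.18, adjusted p = 4.67e-05). In 14559TN it had 100.2, 108 and 124 CPM against 55.9, 50.6 and 46.3 CPM (-1.12 ± 0.18, adjusted p = 1.59e-05). In 2646R it had 82.5, 113 and 121 CPM against 77.5, 72.4 and 50.6 CPM (-0.65 ± 0.18, adjusted p = 0.00852). No treated tumour reached an untreated one in these clones, although in 2646R the gap was narrow and the Ccng1 call was lost without 2646R untreated tumour 3 (0.0742) and 2646R treated tumour 3 (0.0966). In 2646TN (-0.43 ± 0.18) and 14559R (-0.36 ± 0.18) the differences were not called. Treated 13TN was lowest (40.5 ± 4.09 CPM) and lay below all other groups, while the means of the 3 highest groups, untreated 14559R, 14559TN and 2646R, lay between 105 and 112 CPM with overlapping ranges.

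Mdm2 encodes the ubiquitin ligase that marks p53 for destruction and is itself a p53 target, which closes a feedback loop. It fell most in 2646R, from 161, 166 and 179 CPM to 79.4, 74.3 and 89.3 CPM (-1.06 ± 0.17, adjusted p = 2.51e-05). In 13TN it went from 98.6, 99.7 and 138 CPM to 77.3, 75.3 and 69.7 CPM (-0.59 ± 0.17, adjusted p = 0.00721). Untreated tumour 3 was the high one of that clone, and the Mdm2 call in 13TN was lost without 13TN untreated tumour 3 (0.112). In 14559TN, where Cdkn1a and Ccng1 fell, Mdm2 was 96.2, 102 and 78.2 CPM untreated and 98.8, 107 and 84.8 CPM treated, with overlapping groups and a difference of 0.08 ± 0.17 (95% interval -0.27 to 0.42). Differences in 2646TN (-0.54 ± 0.17) and 14559R (-0.29 ± 0.16) were not called. Across the 10 groups Mdm2 was highest in untreated 14559R (169.9 ± 29.1 CPM) and untreated 2646R (169 ± 9.08 CPM) and lowest in treated 2646TN (70.2 ± 8.74 CPM), and each group overlapped its neighbour in rank.

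Phlda3 encodes a small protein that competes with the kinase AKT for membrane lipids. Treatment moved it in opposite directions in 2 clones. In 2646R it fell from 159.7, 150.1 and 196 CPM to 93.1, 88.1 and 117 CPM (-0.76 ± 0.14, adjusted p = 0.000248). In 13TN it rose from 74.7, 80.9 and 72.3 CPM to 136, 152 and 116 CPM (0.83 ± 0.15, adjusted p = 4.62e-05). No tumour overlapped between conditions in either clone, and both calls held under every alternative run. In 2646TN, with 63.7, 58.0 and 70.1 CPM against 81.0, 105 and 85.6 CPM, the groups also did not overlap but the difference of 0.49 ± 0.15 missed the threshold (adjusted p = 0.0515). It passed under 20 alternatives, DESeq2 among them (adjusted p = 0.0394). In 14559TN the difference was -0.02 ± 0.15 and in 14559R -0.33 ± 0.15.

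Sesn1 encodes a sestrin, which restrains the nutrient-sensing kinase complex mTORC1. It rose in 2 of the clones in which Cdkn1a fell. In 14559TN it went from 10.2, 10.8 and 9.33 CPM to 19.3, 21.7 and 21.1 CPM (1.04 ± 0.32, adjusted p = 0.0134), and in 13TN from 7.79, 7.94 and 9.85 CPM to 15.3, 19.1 and 12.3 CPM (0.87 ± 0.33, adjusted p = 0.0385). Groups did not overlap in either clone. In 14559R the tumours had 4.74, 5.78 and 1.95 CPM untreated and 10.4, 9.28 and 7.07 CPM treated, also without overlap, and the difference of 1.10 ± 0.36 was not called (adjusted p = 0.215). In 2646TN and 2646R the differences were not called, 0.08 ± 0.34 in 2646TN and 0.02 ± 0.36 in 2646R. The Sesn1 call in 14559TN was lost without 14559TN untreated tumour 3 (0.0542), and that in 13TN without 13TN untreated tumour 1 (0.0941), 13TN untreated tumour 2 (0.0858), 13TN untreated tumour 3 (0.0508), 13TN treated tumour 1 (0.0619) and 13TN treated tumour 2 (0.138). A gene inside a Sesn1 intron on the same strand, 9930024M15Rik, had 810 counts over all libraries and shares no exon with it.

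Sesn1 was also lower in 14559R than in 14559TN, both untreated (-1.26 ± 0.36, adjusted p = 0.00908) and treated (-1.21 ± 0.32, adjusted p = 0.00216). For Sesn1 the untreated call was lost without 14559R untreated tumour 3 (0.0777). Between 2646R and 2646TN the differences were -0.64 ± 0.35 untreated and -0.70 ± 0.35 treated, with neither called. In the order of means treated 14559TN (20.7 ± 1.26 CPM) and treated 13TN (15.6 ± 3.36 CPM) stood apart from each other and from all groups below, and untreated 14559R was lowest (4.16 ± 1.98 CPM).

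Trp53inp1 encodes a protein of nuclear bodies that acts with kinases on p53 and takes part in autophagy. It fell in 2646R, from 32.2, 29.6 and 31.7 CPM to 20.8, 14.1 and 11.4 CPM (-1.01 ± 0.23, adjusted p = 0.00193), and in 14559TN, from 37.1, 43.6 and 38.8 CPM to 29.8, 23.8 and 19.1 CPM (-0.71 ± 0.22, adjusted p = 0.0158). Neither pair of groups overlapped. The Trp53inp1 call in 14559TN was lost without 14559TN untreated tumour 2 (0.0658) and 14559TN treated tumour 3 (0.116). In 2646TN the groups were apart, at 22.7, 22.1 and 25.6 CPM and 17.8, 11.4 and 14.6 CPM, without a call (-0.68 ± 0.24, adjusted p = 0.107). Untreated 14559TN held the highest level of any group (39.8 ± 3.41 CPM), above every tumour of the others, and untreated 14559R had 20.2 ± 2.30 CPM, a difference of -0.97 ± 0.23 (adjusted p = 0.00175).

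Zmat3 encodes a zinc finger protein that binds RNA and shifts splicing and transcript stability. It fell in 14559TN, from 143, 129 and 138 CPM to 70.7, 68.1 and 69.1 CPM (-0.98 ± 0.18, adjusted p = 9.52e-05), and in 13TN, from 90.1, 95 and 104 CPM to 60.2, 51.7 and 63.5 CPM (-0.72 ± 0.18, adjusted p = 0.00264). The treated tumours lay well below the untreated in both. In 2646R Zmat3 had 101, 127 and 145 CPM untreated and 130.0, 124 and 84.3 CPM treated, which overlapped (-0.14 ± 0.18, 95% interval -0.50 to 0.22), and in 14559R the difference was -0.17 ± 0.18. In 2646TN it was -0.45 ± 0.18, not called.

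Eda2r encodes a receptor of the tumour necrosis factor family. It was a low gene, at most 18.9 CPM in any group mean, and fell in 3 clones. In 2646R it had 19.4, 21.3 and 15.8 CPM against 12.2, 7.73 and 2.53 CPM (-1.32 ± 0.34, adjusted p = 0.006), in 14559TN 12.7, 12.9 and 8.57 CPM against 3.12, 4.80 and 5.71 CPM (-1.31 ± 0.38, adjusted p = 0.00845), and in 13TN 12.7, 14.1 and 15.4 CPM against 6.54, 7.03 and 4.03 CPM (-1.25 ± 0.36, adjusted p = 0.00768). Groups did not overlap in these 3 clones, yet each Eda2r call depended on single tumours. It was lost in 2646R with the macrophage covariate (0.1), and without 2646R treated tumour 3 (0.0619), in 14559TN without 14559TN treated tumour 1 (0.0553) and in 13TN without 13TN treated tumour 3 (0.0524). The Eda2r estimate in 2646R was -1.02 with the covariate. Summed macrophage markers there were 53.8 ± 20.1 CPM untreated and 128 ± 12.8 CPM treated. Untreated 2646R lay above all other groups.

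Of the 2 genes of mitochondrial cell death, Bbc3 was called with treatment in 2 clones and Bax in 0. Bbc3, which encodes the death activator PUMA, fell in 2646R from 18.9, 23.4 and 37.4 CPM to 11.1, 10.1 and 6.58 CPM (-1.50 ± 0.27, adjusted p = 0.000118) and in 13TN from 19.96, 19.8 and 20.6 CPM to 6.99, 18.4 and 8.31 CPM (-0.84 ± 0.27, adjusted p = 0.0157). Groups did not overlap, but in 13TN treated tumour 2 lay close to the untreated values and the Bbc3 call was lost when only the compared groups were fitted (0.0564), and without 13TN untreated tumour 3 (0.0504), 13TN treated tumour 1 (0.169) and 13TN treated tumour 3 (0.102). In 14559R the values were 27.9, 31.2 and 28.6 CPM untreated and 28.1, 28.1 and 29.0 CPM treated, a difference of -0.04 ± 0.25 (95% interval -0.54 to 0.46). In 14559TN the groups were apart at 26.9, 26.4 and 24.2 CPM and 16.5, 20.5 and 16.6 CPM, without a call (-0.53 ± 0.26, adjusted p = 0.123).

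Bax, the effector that opens the outer mitochondrial membrane, was called in no comparison. Its group means ran from 10.6 ± 2.61 CPM in treated 14559TN to 20.1 ± 8.31 CPM in untreated 13TN, and every neighbour in that order overlapped. The estimates closest to the threshold were 2646TN against 13TN untreated (-0.90 ± 0.33, adjusted p = 0.0535) and the response in 14559TN (-0.82 ± 0.33, adjusted p = 0.0594). The first was called under 8 alternatives and the second under 2. Its standard errors, in log2 units, were 0.31 to 0.46. For scale, the called Ccng1 changes under treatment were log2 fold changes of -0.65 to -1.12, which is a different measure. The gene Gm45808, which overlaps Bax exons on the same strand, had 0 counts. Whether reads in the shared stretch were left out of both genes was not tested, so this does not show that Bax lost no reads.

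**Figure D2:**
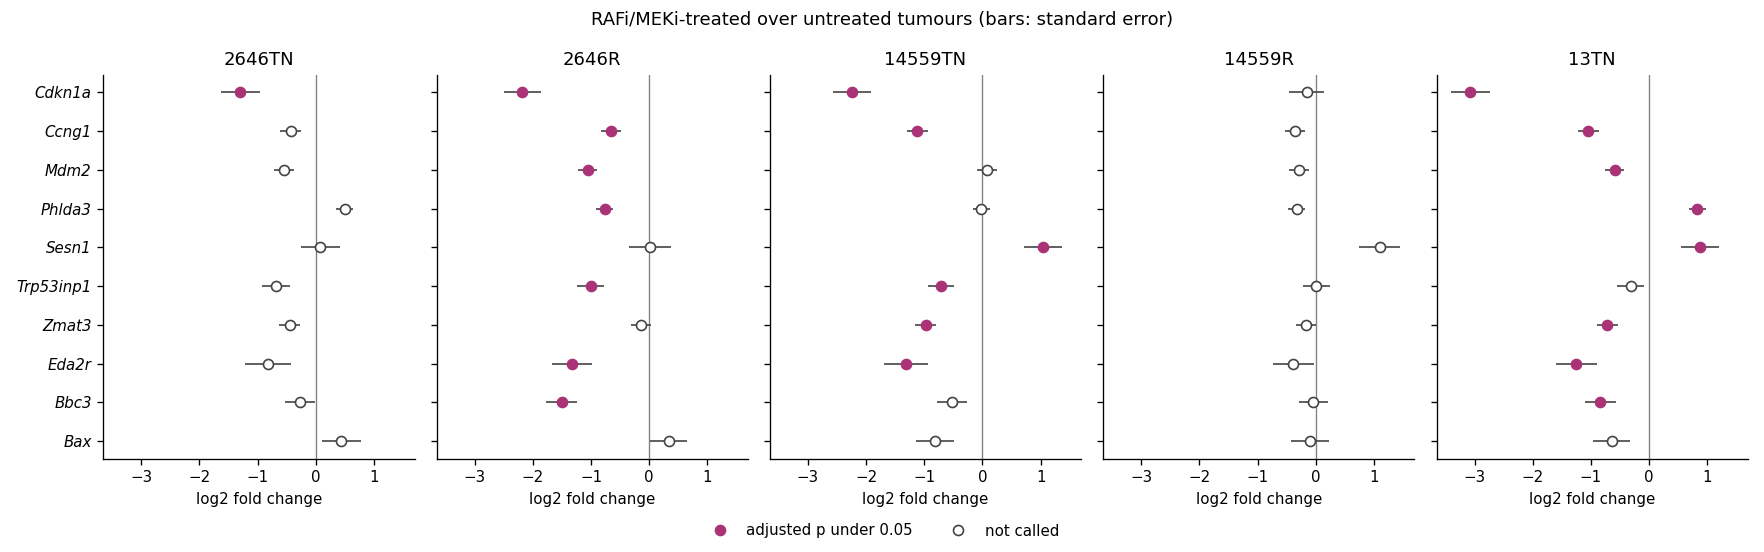
Log2 fold change of RAFi/MEKi-treated over untreated tumours for the 10 genes in each clone, with bars for the standard error and filled points for an adjusted p under 0.05. Filled points lie to the left of 0 except Sesn1 in 14559TN and 13TN and Phlda3 in 13TN, and 14559R has none.

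The R clone was compared with its TN partner in each condition. In untreated tumours of 2646TN and 2646R, 6 of the 10 genes were higher in 2646R and 0 lower, against 36.6% of all tested genes called and 18.3% called higher. They were Cdkn1a, Phlda3 (1.40 ± 0.15, adjusted p = 1.23e-08), Eda2r (1.33 ± 0.35, adjusted p = 0.00293), Mdm2 (0.72 ± 0.17, adjusted p = 0.000961), Zmat3 (0.55 ± 0.18, adjusted p = 0.0146) and Ccng1 (0.54 ± 0.18, adjusted p = 0.0173). Phlda3 was 2.63-fold higher, with 63.7, 58.0 and 70.1 CPM in 2646TN and 159.7, 150.1 and 196 CPM in 2646R. Untreated 2646TN had the highest summed macrophage markers of all groups (241 ± 54.3 CPM against 53.8 ± 20.1 CPM in untreated 2646R). Other marker sums were, for erythroid genes, 530.3 ± 332 CPM in untreated 2646TN against 138 ± 71.7 CPM in untreated 2646R (2 called lower), for endothelial genes 55.6 ± 5.00 against 17.8 ± 6.07 CPM (3 called lower), and for pericyte and smooth muscle genes 69.9 ± 11.9 against 345 ± 21.9 CPM (2 called higher, 1 lower). Their part in the p53 target values was not tested. With the macrophage level as a covariate Mdm2 (0.49, adjusted p = 0.205) and Eda2r (0.78, adjusted p = 0.394) were no longer called, while Cdkn1a (2.28, adjusted p = 0.00402) and Phlda3 (1.34, adjusted p = 9.75e-05) were. The Ccng1 call was lost without 2646TN untreated tumour 1 (0.0694), 2646TN untreated tumour 2 (0.0908), 2646R untreated tumour 2 (0.066) and 2646R untreated tumour 3 (0.0981), and the Zmat3 call without 2646TN untreated tumour 1 (0.0624), 2646TN untreated tumour 2 (0.106) and 2646R untreated tumour 3 (0.0968).

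Under treatment 2646R and 2646TN differed in 3 of the 10 genes, against 20.1% of all tested genes. Cdkn1a and Zmat3 (0.86 ± 0.18, adjusted p = 0.000807) were higher in 2646R and Bbc3 was lower (-0.86 ± 0.28, adjusted p = 0.024). Zmat3 had 53.9, 52.6 and 79.0 CPM in 2646TN and 130.0, 124 and 84.3 CPM in 2646R, without overlap. The Bbc3 call was lost with the macrophage covariate (0.109), and without 2646TN treated tumour 1 (0.092), 2646R treated tumour 2 (0.0521) and 2646R treated tumour 3 (0.143), and its estimate with the covariate was -0.73.

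In untreated tumours of 14559TN and 14559R, 3 of the 10 genes differed, against 24.1% of all tested genes. Mdm2 was higher in 14559R, at 202, 144 and 163 CPM against 96.2, 102 and 78.2 CPM (0.88 ± 0.17, adjusted p = 0.000194), and Sesn1 and Trp53inp1 were lower. Under treatment 7 of the 10 differed, where 49.4% of all tested genes did. Higher in 14559R were Cdkn1a, Ccng1 (0.78 ± 0.18, adjusted p = 0.000622), Zmat3 (0.71 ± 0.18, adjusted p = 0.00155), Eda2r (0.98 ± 0.38, adjusted p = 0.0326), Bbc3 (0.67 ± 0.25, adjusted p = 0.0292) and Mdm2 (0.52 ± 0.17, adjusted p = 0.0109), a direction in which 26.6% of all genes were called, and Sesn1 was lower. The calls of Cdkn1a, Ccng1, Zmat3 and Sesn1 held under every alternative run. Those of the other 3 did not. The Mdm2 call was lost with the macrophage covariate (0.0786), when only the compared groups were fitted (0.0617), and without 14559TN treated tumour 3 (0.0947) and 14559R treated tumour 3 (0.206), the Eda2r call with the macrophage covariate (0.144), and without 14559TN treated tumour 1 (0.15), 14559TN treated tumour 2 (0.066), 14559R treated tumour 1 (0.0617) and 14559R treated tumour 3 (0.0911), and the Bbc3 call with the macrophage covariate (0.102), and without 14559TN treated tumour 1 (0.105), 14559TN treated tumour 3 (0.113), 14559R treated tumour 1 (0.0718), 14559R treated tumour 2 (0.0612) and 14559R treated tumour 3 (0.0643). With the macrophage covariate the estimates were 0.41 for Mdm2, 0.75 for Eda2r and 0.57 for Bbc3.

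**Figure D3:**
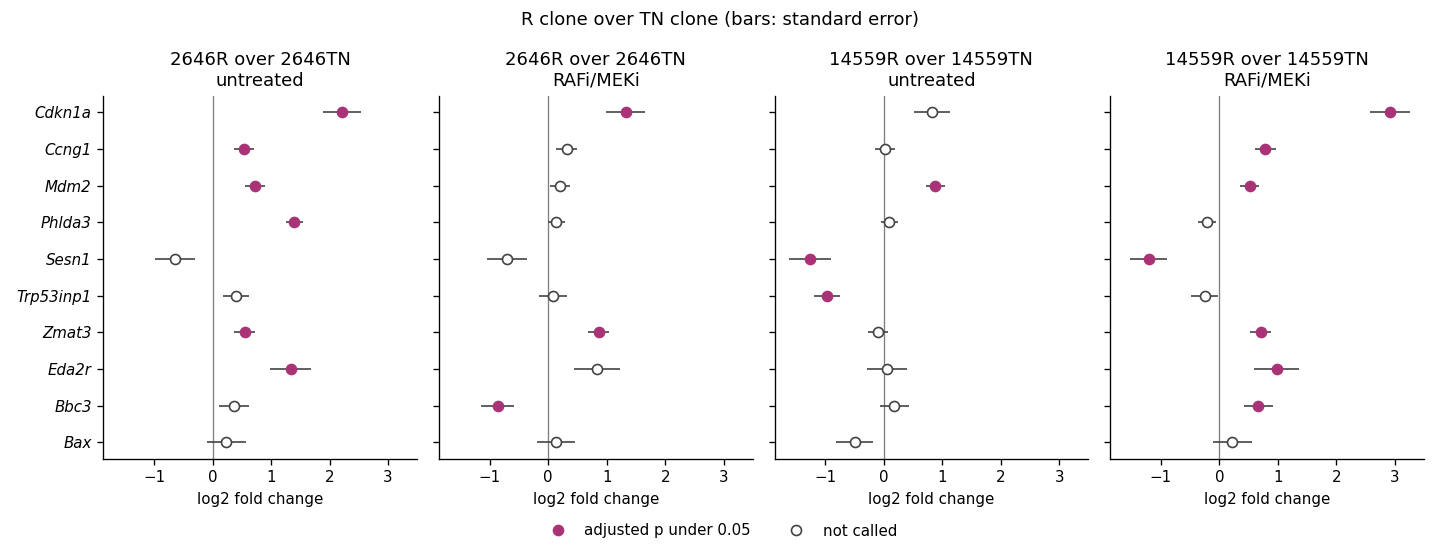
Log2 fold change of each R clone over its TN partner, untreated and under RAFi/MEKi, with bars for the standard error and filled points for an adjusted p under 0.05. Cdkn1a is to the right of 0 in all 4 panels (0.83 to 2.91) and Sesn1 to the left in all 4 (-0.64 to -1.26), though not every one is called.

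The untreated TN clones were also compared with each other. Cdkn1a was lower in 2646TN than in 13TN (-1.87 ± 0.32, adjusted p = 0.000254), 1 of 10 genes where 16.2% of all genes were called. Trp53inp1 was the 1 gene higher in 14559TN than in 13TN (0.92 ± 0.23, adjusted p = 0.00612), against 11.2% of all genes. That Trp53inp1 call was lost without 13TN untreated tumour 3 (0.0561). The 2646TN tumours were lower than 14559TN for 5 of the 10, against 18.9% of all genes called and 8.76% called lower: Cdkn1a (-1.20 ± 0.32, adjusted p = 0.00929), Trp53inp1 (-0.76 ± 0.23, adjusted p = 0.0151), Zmat3 (-0.69 ± 0.18, adjusted p = 0.00543), Ccng1 (-0.61 ± 0.18, adjusted p = 0.0136) and Phlda3 (-0.42 ± 0.15, adjusted p = 0.044). The Zmat3 call held under every alternative run. The Cdkn1a call was lost with the macrophage covariate (0.159), and without 2646TN untreated tumour 1 (0.0538) and 14559TN untreated tumour 2 (0.0547), the Ccng1 call without 2646TN untreated tumour 1 (0.0537), 2646TN untreated tumour 2 (0.0634) and 14559TN untreated tumour 3 (0.0661), the Trp53inp1 call with the macrophage covariate (0.255), and without 2646TN untreated tumour 2 (0.0509) and 14559TN untreated tumour 2 (0.0545), and the Phlda3 call with no low-count filter (0.113), with the macrophage covariate (0.418), and without 2646TN untreated tumour 1 (0.0931), 2646TN untreated tumour 2 (0.145), 14559TN untreated tumour 1 (0.052), 14559TN untreated tumour 2 (0.138) and 14559TN untreated tumour 3 (0.0769). With the macrophage covariate the estimates were -1.27 for Cdkn1a, -0.73 for Trp53inp1 and -0.36 for Phlda3, close to those without it.

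Whether the response to treatment itself differed between clones was tested directly. Between 14559R and 14559TN it differed for 3 of the 10 genes, against 12% of all genes. These were Cdkn1a (a difference in log2 fold change of 2.09 ± 0.45, adjusted p = 0.00336), Zmat3 (0.81 ± 0.25, adjusted p = 0.0307) and Ccng1 (0.76 ± 0.25, adjusted p = 0.0437), each less lowered in 14559R. The Cdkn1a difference held under every alternative run. Zmat3 was lost under 9 of them, each leaving out 1 of the 12 tumours compared, at adjusted p of 0.0606 to 0.109. Ccng1 was lost under 23, among them 10 that leave out 1 of the 12 tumours compared, 11 that leave out a tumour of another clone, median-of-ratios scaling and DESeq2, at adjusted p of 0.0516 to 0.183. Between 2646R and 2646TN the response differed for 1 gene, Phlda3 (-1.26 ± 0.21, adjusted p = 0.000303), against 4.15% of all genes. With the macrophage covariate that Phlda3 difference was -1.17 (adjusted p = 0.135). Bbc3 came close in the same pair (-1.23 ± 0.37, adjusted p = 0.0544) and was called under 5 alternatives, and the Cdkn1a responses of that pair were not called different (-0.88 ± 0.45, 95% interval -1.83 to 0.06).

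Over all 5 clones at once the response differed for 6 of the 10 genes, against 28.8% of all tested genes. They were Phlda3 (adjusted p = 1.68e-06), Cdkn1a (0.000352), Mdm2 (0.00569), Bbc3 (0.0182), Zmat3 (0.0334) and Ccng1 (0.0473). Phlda3, Cdkn1a and Mdm2 kept the call under every alternative run. Bbc3 was lost with the macrophage covariate (0.0731), and without 2646R untreated tumour 3 (0.0986) and 2646R treated tumour 3 (0.0801), Zmat3 when any 1 of 14 tumours was left out, at adjusted p of at most 0.0783. Ccng1 was lost under 25 settings, with median-of-ratios scaling (0.0682), with DESeq2 (0.0622) and when any 1 of 23 tumours was left out, at adjusted p of at most 0.118.

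Trp53, the gene of p53, was called with treatment in no clone (adjusted p of at least 0.0706), with estimates from -0.73 ± 0.30 in 14559TN to 0.30 ± 0.29 in 14559R. It was higher in untreated 2646R than in untreated 2646TN (0.93 ± 0.28, adjusted p = 0.0105), with 45.0, 23.7 and 29.5 CPM against 24.2, 15.6 and 12.1 CPM, and in treated 14559R than in treated 14559TN (0.81 ± 0.30, adjusted p = 0.0248), with 19.5, 16.8 and 21.5 CPM against 8.23, 11.9 and 12.6 CPM. The first of these Trp53 calls was lost with the macrophage covariate (0.623), and without 2646TN untreated tumour 3 (0.0859) and 2646R untreated tumour 1 (0.123), and the second with the macrophage covariate (0.143), and without 14559TN treated tumour 1 (0.124), 14559R treated tumour 1 (0.0619) and 14559R treated tumour 3 (0.0779). Transcript level says little about p53 activity, which is set mainly through protein stability.

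Mdm4, whose product masks the activation domain of p53, rose in 2 clones. It went from 147, 143 and 158 CPM to 235, 196 and 208 CPM in 14559TN (0.51 ± 0.12, adjusted p = 0.00105) and from 136, 133 and 138 CPM to 203, 203 and 206 CPM in 13TN (0.59 ± 0.12, adjusted p = 0.000182), with no overlap. It was lower in 14559R than in 14559TN untreated (-0.52 ± 0.12, adjusted p = 0.00131) and treated (-0.88 ± 0.12, adjusted p = 2.3e-07), and in treated 2646R than in treated 2646TN (-0.41 ± 0.12, adjusted p = 0.0117). That last Mdm4 call was lost with no low-count filter (0.122), when only the compared groups were fitted (0.0866), and without 2646TN treated tumour 1 (0.114), 2646R treated tumour 1 (0.063) and 2646R treated tumour 2 (0.0859). Cdkn2a, whose ARF product inhibits Mdm2, had group means of 1.51 to 5.25 CPM and was called in no comparison; 3′ reads do not check a deletion elsewhere in the gene. Of the 16 tested genes in a list of the p53 family and its regulators, 1 was called in 2646TN, 1 in 2646R, 5 in 14559TN, 0 in 14559R and 5 in 13TN, where 3.94%, 19.9%, 28.4%, 0.196% and 31% of all tested genes were called. The counts in 14559TN and 13TN were near those shares.

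A further 45 known p53 targets were listed, of which 43 were tested; Perp and Slc19a2 had too few counts. They were chosen with earlier results of these data known. In treated against untreated tumours, 2 were higher and 3 lower in 2646TN, 5 and 7 in 2646R, 5 and 11 in 14559TN, 0 and 0 in 14559R, and 2 and 13 in 13TN. Of all tested genes 1.69% were called higher and 2.24% lower in 2646TN, 9.7% and 10.2% in 2646R, 12.4% and 16% in 14559TN, 0.143% and 0.0527% in 14559R, and 13.6% and 17.4% in 13TN. The total of 15 of 43 in 13TN was thus near the 31% of all genes. Median log2 fold changes of the 43 were -0.13, -0.15, -0.12, 0.01 and -0.32 in that order, closer to 0 than those of the 10 genes in each clone. In 14559R, where edgeR and DESeq2 called 0 of the 43, 6 had an unadjusted p under 0.05.

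Gadd45a, an arrest and repair gene, fell in 3 clones. Its means were 196 ± 112 CPM untreated and 20.4 ± 5.14 CPM treated in 2646R (-3.26 ± 0.37, adjusted p = 1.14e-06) and 27.8 ± 2.72 and 4.16 ± 0.542 CPM in 13TN (-2.74 ± 0.45, adjusted p = 4.97e-05). In 14559TN the change was -1.38 ± 0.45 (adjusted p = 0.0247), and that Gadd45a call was lost without 14559TN untreated tumour 1 (0.0823), 14559TN untreated tumour 2 (0.0801), 14559TN treated tumour 1 (0.112) and 14559TN treated tumour 3 (0.0627). Sesn2, the sestrin related to Sesn1, fell in the same 3 clones (-1.46 ± 0.37 in 2646R, -1.31 ± 0.43 in 14559TN and -1.33 ± 0.39 in 13TN), while Sesn1 did not fall in any. The Sesn2 call in 14559TN was lost without 14559TN untreated tumour 2 (0.076), 14559TN untreated tumour 3 (0.0538), 14559TN treated tumour 1 (0.0717), 14559TN treated tumour 2 (0.0555) and 14559TN treated tumour 3 (0.0658), and in 13TN without 13TN untreated tumour 1 (0.0803) and 13TN treated tumour 1 (0.0634). Pmaip1, the death activator NOXA, fell in 2646R (-1.70 ± 0.36, adjusted p = 0.000855) and 13TN (-2.08 ± 0.54, adjusted p = 0.0034), and had the lowest adjusted p of the listed targets in 14559R without being called (-0.97 ± 0.32, adjusted p = 0.219).

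Other listed targets moved the opposite way or by clone. Pml, which encodes the scaffold of nuclear bodies, rose in 4 clones: 0.75 ± 0.15 in 2646TN, 0.85 ± 0.15 in 2646R, 0.57 ± 0.15 in 14559TN and 0.69 ± 0.15 in 13TN. In 14559R it was 0.42 ± 0.15 (adjusted p = 0.27). In 2646TN the Pml call was lost with the macrophage covariate (0.0754). Pltp, a phospholipid transfer protein gene, rose in 14559TN (2.51 ± 0.40, adjusted p = 1.09e-05), 13TN (1.75 ± 0.34, adjusted p = 0.000139) and 2646R (0.92 ± 0.32, adjusted p = 0.0412). Its call in 2646R was lost with the macrophage covariate (0.169), when only the compared groups were fitted (0.066), and without 2646R untreated tumour 1 (0.115), 2646R untreated tumour 2 (0.117) and 2646R treated tumour 1 (0.244). Gpx1, a glutathione peroxidase gene, fell in 14559TN (-1.16 ± 0.13, adjusted p = 4.93e-08) and 13TN (-1.08 ± 0.13, adjusted p = 1.19e-07) and rose in 2646TN (0.50 ± 0.13, adjusted p = 0.0226). That Gpx1 increase was lost with the macrophage covariate (0.133), when only the compared groups were fitted (0.0598), and without 2646TN untreated tumour 1 (0.0528), 2646TN untreated tumour 2 (0.0752), 2646TN untreated tumour 3 (0.0618) and 2646TN treated tumour 1 (0.111).

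Ddit4, which encodes a stress-induced inhibitor of mTORC1, fell in 2646TN and 2646R, by means of 147 ± 29.9 to 53 ± 4.14 CPM in 2646TN (-1.47 ± 0.27, adjusted p = 0.00185) and 271 ± 55.0 to 86.6 ± 23.7 CPM in 2646R (-1.64 ± 0.26, adjusted p = 8.59e-05). The Ddit4 call in 2646TN was lost with the macrophage covariate (0.262). Rps27l, a ribosomal protein gene, fell in 14559TN (-1.09 ± 0.14, adjusted p = 2.52e-07) and 13TN (-0.81 ± 0.14, adjusted p = 2.25e-05), and so did Ak1, an adenylate kinase gene (-0.86 ± 0.14, adjusted p = 2.52e-05, and -1.11 ± 0.14, adjusted p = 3.31e-07).

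**Figure D4:**
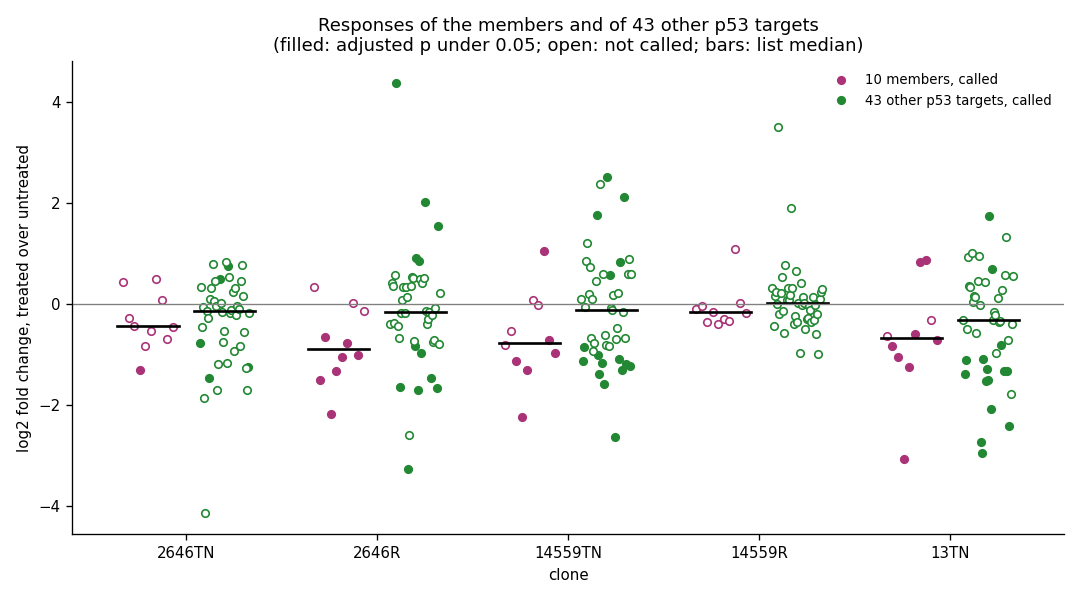
Log2 fold change under RAFi/MEKi in each clone for the 10 genes (purple) and 43 other p53 targets (green), with filled points called at an adjusted p under 0.05 and bars at the list median. Medians of the 10 genes lie between -0.16 and -0.88 and those of the other targets between -0.32 and 0.01.

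Likeness between genes was described over the 10 group means of log2 CPM, which share libraries and treatment. The tested genes most like Cdkn1a were Plxna4 (Pearson r of 0.982), Mfsd1 (0.982), Rtraf (0.979), Tgif1 (0.978) and Clvs1 (0.976). Of the other 9 p53 targets, Eda2r (0.936), Ccng1 (0.917), Zmat3 (0.869) and Mdm2 (0.849) were closest, followed by Bbc3 (0.704), Trp53inp1 (0.484) and Bax (0.296). Phlda3 had a coefficient of 0.024 and Sesn1 one of -0.67. Ranked by likeness to Cdkn1a among the 13286 tested genes, Eda2r stood at 52, Ccng1 at 113, Zmat3 at 341 and Mdm2 at 465. Bbc3 stood at 1548, Trp53inp1 at 3358, Bax at 4818, Phlda3 at 6522 and Sesn1 at 11488. Over the 45 pairs among the 10 genes, 19 had a coefficient over 0.5 and 14 were below 0, with a median of 0.34. The matching share over pairs of all tested genes was not computed, so these counts only describe the list. The 10 genes thus did not share 1 pattern over these groups.

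**Figure D5:**
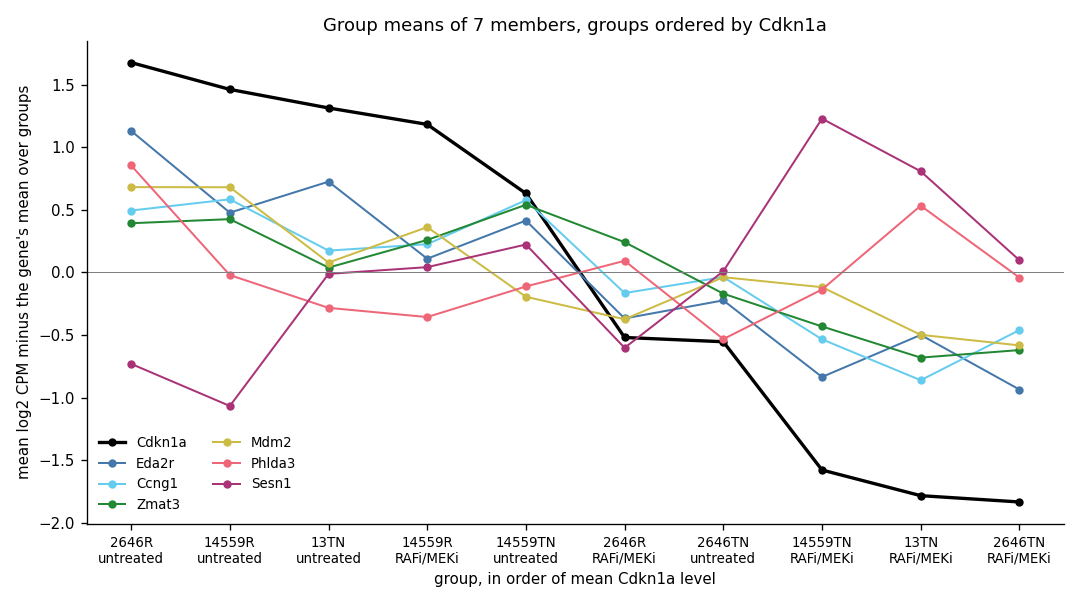
Group means of log2 CPM for 7 of the genes, each set to a mean of 0 over the 10 groups, with groups ordered by Cdkn1a. Eda2r, Ccng1, Zmat3 and Mdm2 are mostly lower where Cdkn1a is lower, but not at every step, and Zmat3 is highest in untreated 14559TN. Sesn1 climbs in treated 14559TN and 13TN, and Phlda3 peaks in untreated 2646R and treated 13TN.

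Other gene lists moved in the same groups. All 24 cell division genes fell in 14559TN (summed CPM from 1261 ± 123 to 198 ± 35.7) and 13TN (from 1773 ± 31.1 to 166 ± 25.6), in both of which Cdkn1a, an inhibitor of division, also fell. In 2646R 15 of the 24 rose. Of all tested genes 16% fell in 14559TN, 17.4% fell in 13TN and 9.7% rose in 2646R. Mki67, a gene of dividing cells, had 89.8, 83.8 and 68.6 CPM untreated and 3.16, 4.31 and 5.29 CPM treated in 13TN (-4.25 ± 0.32, adjusted p = 3.67e-11), and rose in 2646R (1.17 ± 0.24, adjusted p = 0.000811). Cdkn1a was called lower in 2646R as well. In 2646TN, where Cdkn1a was also called lower, 0 of the 24 were called, against 3.94% of all tested genes. In 14559R neither Cdkn1a nor any of the 24 was called, against 0.196% of all tested genes.

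The 12 ATF4 stress genes summed highest in the 2 groups with the highest Cdkn1a, untreated 2646R (4187 ± 533 summed CPM) and untreated 14559R (2456 ± 132), and lowest in treated 14559TN (888 ± 33.2). The sums did not follow the Cdkn1a order throughout. Untreated 14559TN (1156 ± 114) was close to treated 2646TN (1173 ± 257), although their Cdkn1a means were 255 and 45.1 CPM. Under treatment 4 of the 12 fell in 2646TN, 10 in 2646R, 6 in 14559TN, 0 in 14559R and 10 in 13TN, against 2.24%, 10.2%, 16%, 0.0527% and 17.4% of all tested genes. Ddit3, a stress gene of that list, had 647, 468 and 522 CPM untreated and 42.8, 49.0 and 50.1 CPM treated in 2646R (-3.53 ± 0.27, adjusted p = 2.76e-09).

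The 10 fibroblast markers had a higher mean sum under treatment in every clone, from 5614 ± 1098 to 9869 ± 3861 CPM in 2646TN, 6643 ± 717 to 15647 ± 952 CPM in 2646R, 9559 ± 487 to 13133 ± 3050 CPM in 14559TN, 12560 ± 1554 to 17213 ± 4704 CPM in 14559R and 4314 ± 423 to 8790 ± 529.6 CPM in 13TN. Called higher were 1 of the 10 in 2646TN, 3 in 2646R, 4 in 14559TN, 0 in 14559R and 5 in 13TN, with 1 called lower in each of 14559TN and 13TN. Of all tested genes 1.69%, 9.7%, 12.4%, 0.143% and 13.6% were called higher in the same order. Called lower were 16% of all tested genes in 14559TN and 17.4% in 13TN. The part of division, stress or non-tumour cells in the p53 target values was not tested, apart from the macrophage covariate given above.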

How the data were processed

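Raw counts per gene were deposited by the authors, 1 table per library; per the file headers they were made with featureCounts, counting on 1 strand, and per the submitters' processing notes with STAR 2.6.0c, featureCounts 1.6.2 and GRCm38. The annotation release is not given in the sources used here. Libraries were Lexogen QuantSeq 3′ libraries of polyA RNA, per the labels' protocols. The 30 libraries held 3022801 to 5278453 counts.

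The counts were tested with edgeR 4.0.16 (R 4.3.3) in 1 quasi-likelihood model of the 10 groups, with TMM factors, robust dispersions, genes kept by filterByExpr and Benjamini-Hochberg adjustment over all 13286 genes tested. SE is the log2 fold change divided by the square root of F, and intervals are 95%. Comparisons were treated against untreated within a clone, R against TN, the untreated TN clones, and differences of responses. The model was tested on simulated counts. No replicate pair matched within sampling noise (lowest chi-square per degree of freedom 3.26). The labels do not state that tumours came from separate animals, so p-values measure the spread between these samples, which may be technical.

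Alternatives were DESeq2 1.42.0, its median-of-ratios factors, no low-count filter, a fit of only the groups compared, the mean log2(CPM + 1) of the macrophage markers as a covariate, and leaving out each tumour. Other p53 targets were named when called in at least 3 responses or among the 2 with the lowest adjusted p in a response, and the 5 genes most like Cdkn1a by Pearson correlation of group means. The members, lists and rules were chosen with earlier results of these data known. Promoter windows came from RefSeq, GRCm38.p6, with 8 of 10 members matched by symbol.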

Additional observations from a re-analysis of the deposited data

Results flagged for a closer look

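The response to RAFi/MEKi differed between clones of a pair for 4 of the gene and pair combinations, by a test of the difference in log2 fold change (edgeR quasi-likelihood test). Cdkn1a differed by 2.09 between 14559R and 14559TN, Zmat3 by 0.81 and Ccng1 by 0.76, each higher in 14559R. Phlda3 differed by -1.26 between 2646R and 2646TN, with responses of -0.76 (called) and 0.49 (not called).

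Over the 5 clones the response differed for Phlda3 (adjusted p = 1.68e-06, edgeR quasi-likelihood test), Cdkn1a (0.000352), Mdm2 (0.00569), Bbc3 (0.0182), Zmat3 (0.0334) and Ccng1 (0.0473). Groups of 3 tumours were not searched for outlying values.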

How the results depend on the processing

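Outside the test over all 5 clones at once, whose calls are described above, 52 calls were made for the 10 genes. Of these, 25 were kept under every alternative run, 27 were lost under at least 1 and 0 changed direction. In the same comparisons, 15 values that were not called passed under at least 1 alternative. The number of the 10 genes called moved by more than 1.5 times in these cases. With DESeq2 it was 2 (from 1) in 2646TN, 2 (from 1) in untreated 14559TN against 13TN and 2 (from 1) for the response difference between 2646R and 2646TN. With no low-count filter these 3 counts were 2, 3 and 3, and untreated 2646TN against 13TN had 2 (from 1). With the macrophage covariate the counts were 0 in 2646TN, 4 (from 7) in treated 14559R against 14559TN, 2 in untreated 14559TN against 13TN, 2 (from 5) in untreated 2646TN against 14559TN and 0 for the 2646R and 2646TN response difference. When only the compared groups were fitted, untreated 2646TN and 14559TN against 13TN each had 3. Leaving out 1 tumour gave, for responses, 0 to 3 (2646TN), 5 to 7 (2646R), 5 to 7 (14559TN) and 5 to 8 (13TN), and otherwise 4 to 7 and 2 to 3 in untreated and treated 2646R against 2646TN, 2 to 4 and 4 to 7 in untreated and treated 14559R against 14559TN, 1 to 2 in 2646TN against 13TN, 0 to 2 in 14559TN against 13TN, 2 to 5 in 2646TN against 14559TN, 1 to 2 and 1 to 3 for the response differences (2646R with 2646TN, 14559R with 14559TN) and 4 to 6 over the 5 clones. In 14559R the count was 0 under every alternative run. No paired analysis was possible because each tumour has its own code in the labels and no number shared between groups. Sesn1 and Eda2r were low genes, with log2 standard errors of 0.32 to 0.36 and 0.34 to 0.40 for the responses, against 0.18 for Ccng1.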
